A study of Homo sapiens with 4 samples.

Results

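The HOX genes are homeobox transcription factors that lie in 4 clusters, HOXA on chromosome 7, HOXB on chromosome 17, HOXC on chromosome 12 and HOXD on chromosome 2. The 38 HOX genes described here were taken by name, and all 38 were found among the 19974 protein-coding genes of the RefSeq gene table (GRCh38.p14, the same build as hg38). Each cluster was taken from the start of its first to the end of its last listed gene with 50 kb on each side, 921 kb in all, and every called interval in it was given to the nearest HOX gene body. Once intervals of the 4 libraries sharing 1 bp or more had been joined, 127 of the 122856 regions on chromosomes 1 to 22 and X were nearest to a listed gene. Another 4 regions in the windows were nearest to a HOX gene outside the list and were not analysed here.

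Open chromatin had been mapped by ATAC-seq, in which the transposase Tn5 cuts and tags accessible DNA. All 4 libraries came from HCT116, an established colorectal carcinoma line, with 2 libraries per group. The FOXD2 libraries came from cells stably transduced with pSin lentivirus that carries the full-length FOXD2 CDS (FOXD2 is a transcription factor of the forkhead family), and the control libraries from cells transduced with the empty pSin vector. All cells were kept under 5 µg/ml puromycin, so the controls share the transduction and the selection, and an effect of either on the HOX genes cannot be seen in this comparison. Whether replicates 1 and 2 of a group are independent cultures is not stated, and differences between them may be technical in origin. Each group is a transduced line rather than an allele, and the labels name no promoter for the FOXD2 insert.

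HOX genes give cells their position along the head-to-tail axis. Genes at one end of a cluster (anterior, paralog groups 1 to 3) act in the hindbrain and pharyngeal arches, the central ones (4 to 8) in the trunk, and those at the other end (posterior, 9 to 13) in the distal limbs, the urogenital tract and the hindgut, from which much of the colon forms. Polycomb complexes hold unused HOX genes silent and Trithorax and MLL complexes keep used ones active, so a cluster is often open over one stretch and closed over another. HOX proteins bind DNA together with TALE homeodomain partners such as PBX and MEIS, and caudal factors such as CDX2 act upstream of them in the gut.

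Promoter sequences from RefSeq (GRCh38.p14) were available for 20 of the 38 members, as 26 distinct windows of 300 bases from 250 before to 50 after a start site. The 4 below run 5′ to 3′, with every CpG dinucleotide in capitals, and were chosen because they span the range from a window under an interval in every library to windows under none. HOXA13 (chr7:27200042-27200341, minus strand, 44 CpG) lay under a called interval in all 4 libraries, and HOXA9 (chr7:27165488-27165787, minus strand, 22 CpG) in 3 of them. HOXD3 (chr2:176157057-176157356, plus strand, 25 CpG) and HOXA2 (chr7:27102634-27102933, minus strand, 11 CpG) lay under none.
HOXA13 promoter: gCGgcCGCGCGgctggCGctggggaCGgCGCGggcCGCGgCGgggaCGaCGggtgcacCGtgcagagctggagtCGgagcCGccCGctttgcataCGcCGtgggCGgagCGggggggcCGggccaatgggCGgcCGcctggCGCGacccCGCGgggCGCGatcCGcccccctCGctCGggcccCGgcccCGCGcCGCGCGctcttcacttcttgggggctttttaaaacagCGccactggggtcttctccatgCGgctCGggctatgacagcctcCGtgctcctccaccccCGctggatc
HOXA9 promoter: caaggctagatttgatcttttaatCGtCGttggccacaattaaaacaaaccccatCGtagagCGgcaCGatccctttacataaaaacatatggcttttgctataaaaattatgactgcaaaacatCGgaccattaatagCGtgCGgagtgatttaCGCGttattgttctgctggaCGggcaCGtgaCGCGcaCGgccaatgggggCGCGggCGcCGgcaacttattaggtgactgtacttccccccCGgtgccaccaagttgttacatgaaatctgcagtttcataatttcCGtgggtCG
HOXD3 promoter: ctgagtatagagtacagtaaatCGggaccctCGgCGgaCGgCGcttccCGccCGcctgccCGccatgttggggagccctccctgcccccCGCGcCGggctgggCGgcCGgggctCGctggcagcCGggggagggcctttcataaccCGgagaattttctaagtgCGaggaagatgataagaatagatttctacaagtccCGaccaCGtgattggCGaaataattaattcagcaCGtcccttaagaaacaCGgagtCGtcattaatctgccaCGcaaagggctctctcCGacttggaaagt
HOXA2 promoter: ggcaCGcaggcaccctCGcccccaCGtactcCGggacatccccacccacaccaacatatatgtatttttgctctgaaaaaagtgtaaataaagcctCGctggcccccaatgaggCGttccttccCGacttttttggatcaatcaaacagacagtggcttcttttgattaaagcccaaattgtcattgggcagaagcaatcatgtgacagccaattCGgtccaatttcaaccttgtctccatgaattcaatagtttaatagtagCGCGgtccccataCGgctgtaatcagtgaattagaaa

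**Figure D1:**
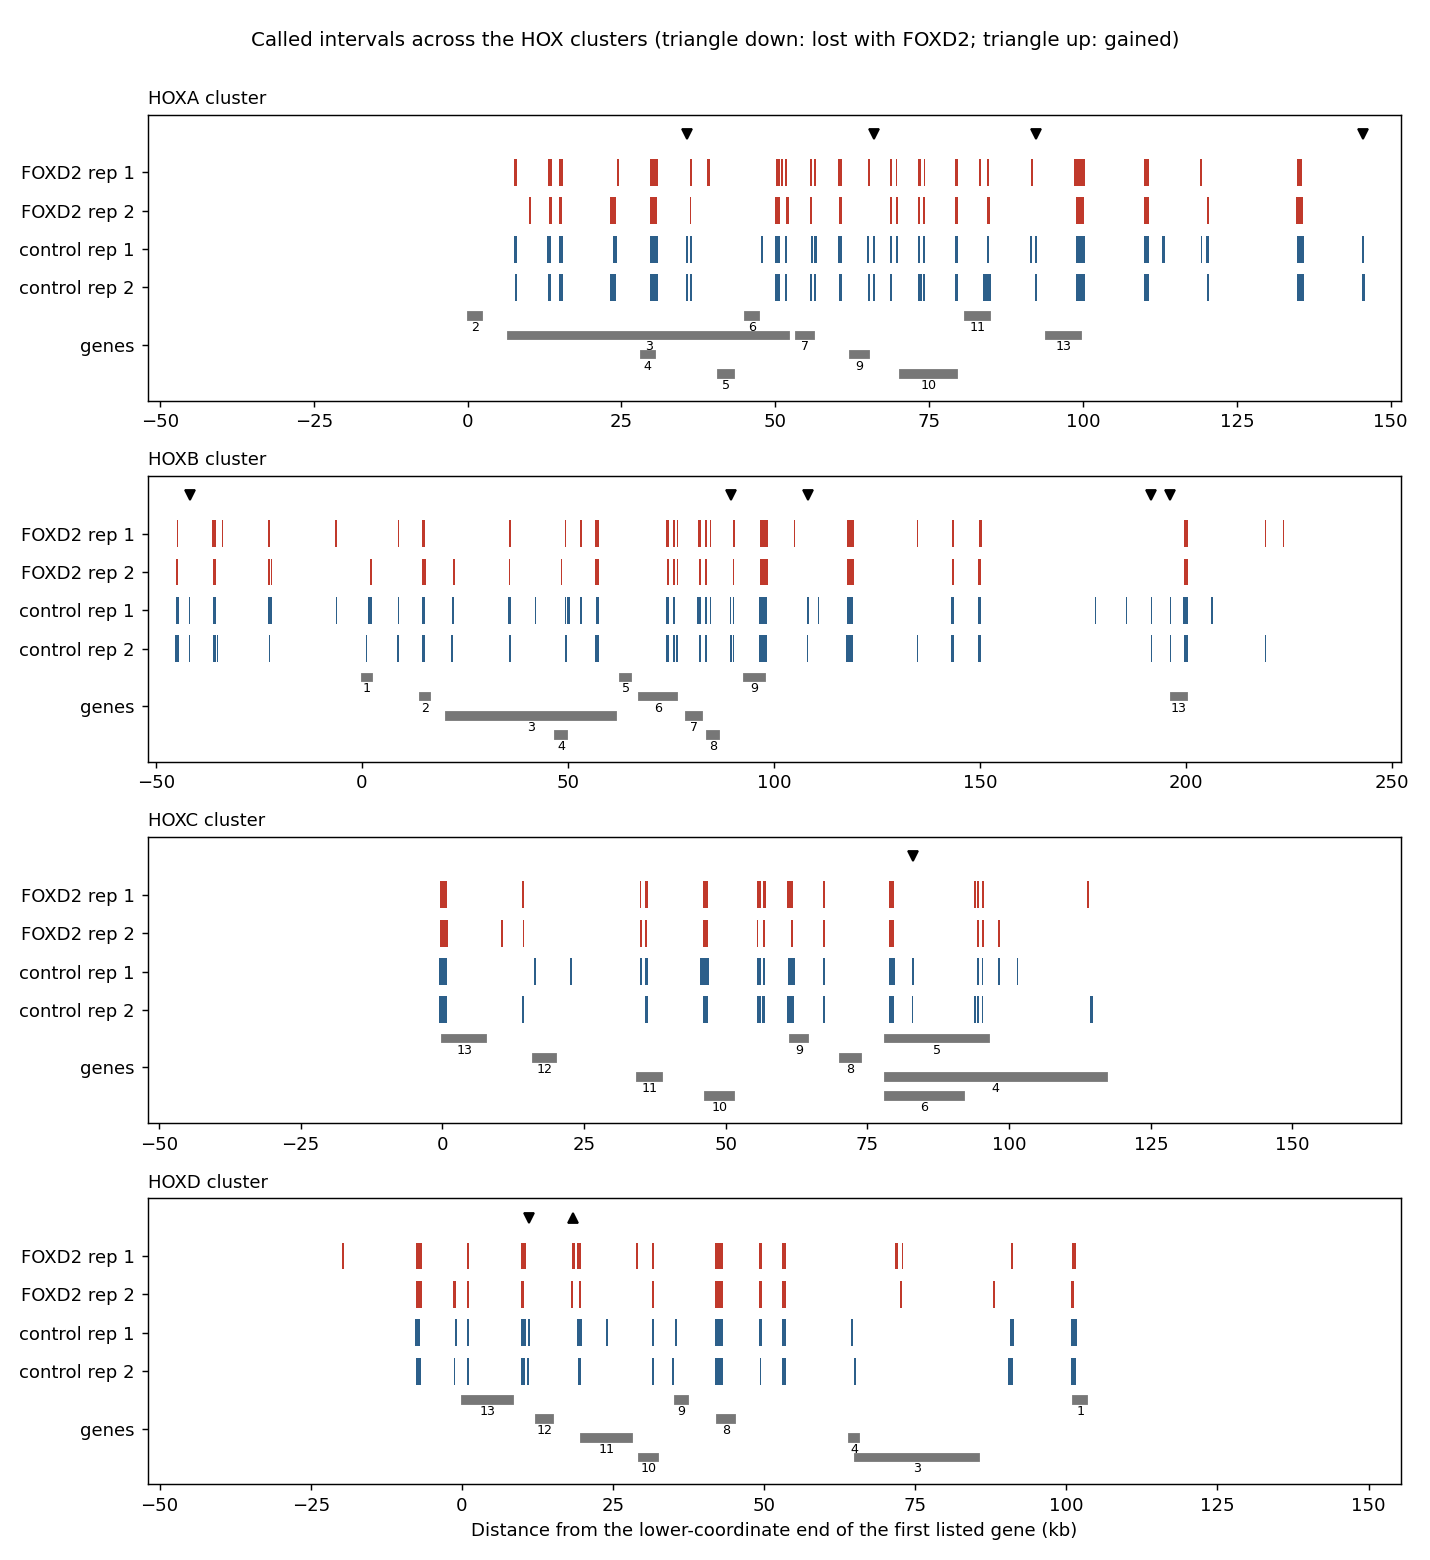
Called intervals (bars, red for FOXD2 and blue for control libraries) along the 4 HOX clusters, by distance in kb from the lower-coordinate end of the first listed gene; grey bars are gene bodies with their paralog number, a bar spans all intervals of a library in one merged region, and the narrowest bars are widened to be visible. The 11 triangles that point down mark regions called in both controls and neither FOXD2 library, and the 1 that points up marks the reverse, near HOXD11.

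In HCT116, most HOX genes carried open chromatin at a gene end, in every cluster. An interval within 1000 bp of either end of the gene was called in all 4 libraries at 23 of the 38 members, 60.5%, against 65.5% of all protein-coding genes. Another 9 members had one in 1 to 3 libraries, and 6 had none in any library, which is 15.8% of the members against 23.1% of all genes. Both shares lie near those of all genes. The members with none were HOXA2, HOXA5, HOXB3, HOXB5, HOXC8 and HOXD12. HOXA2 patterns the second pharyngeal arch and HOXA5 is needed for lung development in the mouse.

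By position along the body axis, an interval in all 4 libraries was found at 3 of 7 anterior, 9 of 15 central and 11 of 16 posterior members. No gene end was called at 2 anterior, 3 central and 1 posterior member. All 4 members of paralog group 13, the most posterior, were open in every library, as were the 3 members of group 10 and both of group 7, while neither member of group 12 was. The clusters were alike in this count, with 6 of 10 members in HOXA, 6 of 10 in HOXB, 6 of 9 in HOXC and 5 of 9 in HOXD. These groups hold few genes and some genes share a peak, so the order is a description. HOXC4, HOXC5 and HOXC6 have the same first base in the gene table and were all counted through 1 peak, and HOXB7 and HOXB8 partly so. The anterior HOXA3 has a long gene body in the gene table, which spans the central HOXA4, HOXA5 and HOXA6. The gene-end region through which it was counted in all 4 libraries, chr7:27151892-27152573, lies between HOXA6 and HOXA7, among the central genes.

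**Figure D2:**
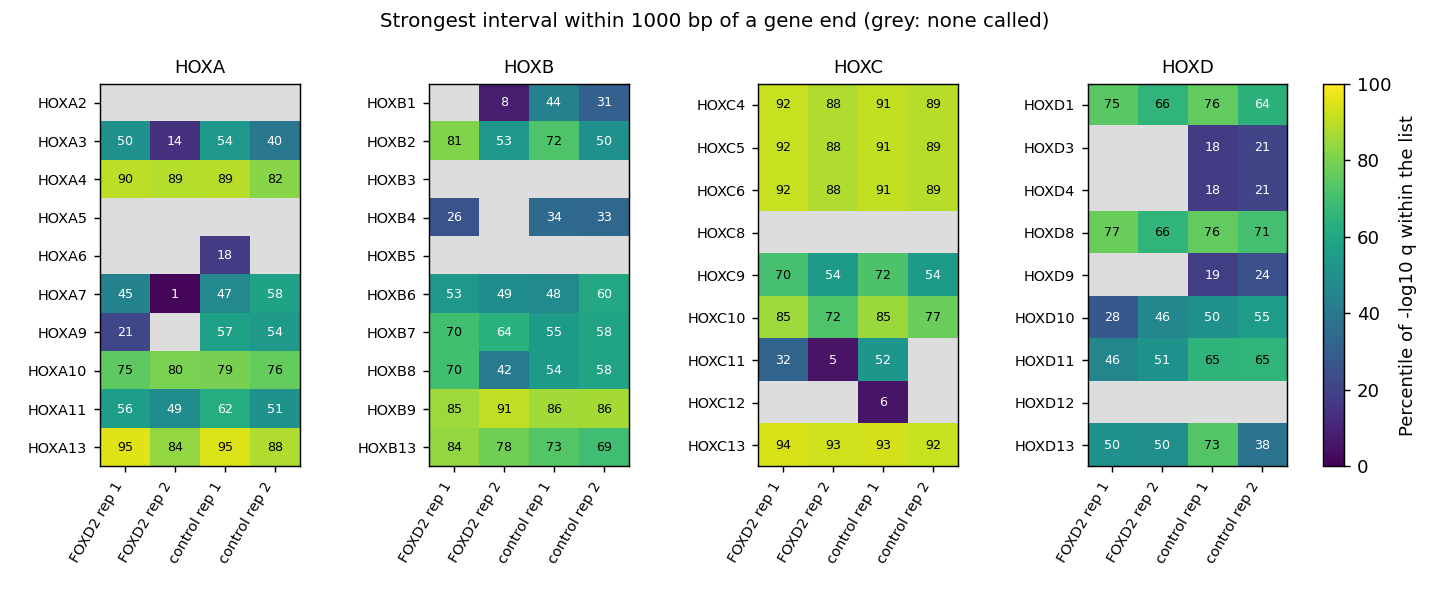
Within-list percentile of the strongest interval within 1000 bp of a gene end for each of the 38 members (rows) in each library (columns, FOXD2 first), with grey where no interval was called. HOXA13, HOXC13 and the shared start of HOXC4, HOXC5 and HOXC6 are the brightest, and 6 members are grey in every library.

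The strength of an interval is given as −log10 q, the significance that the authors' peak caller attached to it, and as its percentile among the intervals of the same list, since −log10 q grows with sequencing depth and the depth is unknown. Over whole lists, median −log10 q was 10.1 and 10.8 in the FOXD2 libraries and 11.1 and 11.9 in the controls. Median fold enrichment was 5.3 and 5.52 against 5.67 and 5.78. For the strongest gene-end interval of all protein-coding genes, median −log10 q was 44.7 and 35.2 against 52.7 and 49.7. Both controls were thus above both FOXD2 libraries on these scales over all genes and intervals, not at HOX genes alone. HOXA13, which shapes the hindgut, the urogenital tract and the digits, had the strongest gene-end peak of HOXA by mean percentile over the 4 libraries, with −log10 q of 62.0 and 30.5 in FOXD2 replicates 1 and 2, and of 75.6 and 48.6 in control replicates 1 and 2. Its percentiles were 95 and 83.9 in the FOXD2 libraries and 94.9 and 88.0 in the controls, and its fold enrichment was 9.88 and 7.67 in the FOXD2 libraries and 11.9 and 9.54 in the controls. Replicate 1 was higher than replicate 2 in both groups, and the groups overlapped. The merged region, chr7:27198910-27200645, also holds the end of HOTTIP, a long noncoding RNA gene next to HOXA13. The gene-end peak of HOXA with the greatest mean width was at HOXA4, which acts in the cervical vertebrae in the mouse, with widths of 1387 and 1271 bp in the FOXD2 libraries and 1362 and 1304 bp in the controls, although HOXA13 was wider in control replicate 1, at 1422 bp. HOXA4 had −log10 q of 45.6 and 38.0 in the FOXD2 libraries and 54.0 and 37.0 in the controls, so the groups overlapped there too. In FOXD2 replicate 2 HOXA4 was stronger than HOXA13.

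In HOXB the gene-end peak with the highest −log10 q and the greatest width in each library was that of HOXB9, a posterior trunk gene. It spanned 1947 and 1905 bp in the FOXD2 libraries and 1939 and 1898 bp in the controls, with −log10 q of 35.6 and 40.8 in the FOXD2 libraries and 45.5 and 45.2 in the controls. Both controls had the higher −log10 q, while the widths overlapped and the percentiles of 85.4 and 90.6 in the FOXD2 libraries bracketed the 86.2 and 86.5 of the controls. HOXB13, a gene of the prostate and the distal gut, went the other way. Its −log10 q was 32.7 and 24.6 in the FOXD2 libraries against 25.3 and 22.3 in the controls, and the groups overlapped. By percentile both FOXD2 libraries, at 83.6 and 78.2, were above both controls, at 73.4 and 69.3. Some of the strongest HOXB regions lay outside any listed gene, between HOXB9 and HOXB13. The region at chr17:48645968-48648028, 2061 bp wide and 19610 bp from HOXB9, had percentiles of 92.1 and 94.1 in the FOXD2 libraries and 91.7 and 91.2 in the controls. The region at chr17:48678054-48678982, 45781 bp from HOXB13, had 92.8 and 94.8 in the FOXD2 libraries and 94.3 and 93.8 in the controls. HOXB3, without an interval at either end, carried a strong one inside its long gene body, at chr17:48585019-48586157. It had percentiles of 90.4 and 87.8 in the FOXD2 libraries and 91.5 and 92.8 in the controls. This place lies between HOXB4 and HOXB5, since the HOXB3 body spans HOXB4.

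The strongest gene-end peak of HOXC in each library was at HOXC13, a gene of hair and nails, which also had the greatest mean width, with 1368 and 854 bp in the FOXD2 libraries and 1408 and 706 bp in the controls. It had −log10 q of 57.8 and 45.4 in the FOXD2 libraries and 67.2 and 59.5 in the controls, and fold enrichments of 10.6 and 9.76 in the FOXD2 libraries and 10.8 and 10.9 in the controls. Both controls were above both FOXD2 libraries on the 2 scales, whereas the percentiles of 93.9 and 92.7 in the FOXD2 libraries overlapped the 93.1 and 91.7 of the controls. The peak counted for HOXC4, HOXC5 and HOXC6, at chr12:54017611-54018729, had −log10 q of 50.1 and 36.4 in the FOXD2 libraries and 58.2 and 51.7 in the controls, with percentiles of 91.6 and 88.1 in the FOXD2 libraries and 90.7 and 89.2 in the controls, which overlapped. In HOXD the highest mean percentile and mean width were at HOXD8, a trunk gene, with −log10 q of 24.8 and 16.5 in the FOXD2 libraries and 28.2 and 23.5 in the controls. Its widths were 753 and 764 bp in the FOXD2 libraries and 1401 and 759 bp in the controls, and the groups overlapped on both measures. HOXD1 was wider than HOXD8 in control replicate 2, at 828 bp, and had the higher fold enrichment in the other 3 libraries.

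HOXD13, whose mutation fuses and duplicates digits in people, was open near one gene end but not over its promoter window. Its gene-end interval had −log10 q of 10.3 and 10.7 in the FOXD2 libraries and 25.1 and 8.71 in the controls, and control replicate 1 stood apart. No library had an interval over its promoter window, and the start site of that window lies inside the longer gene body of the table. Counting only the 5′ end, which was possible for the 20 members with a promoter entry, 11 had an interval in all 4 libraries and 4 had none.

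As a group, the HOX gene-end peaks were weaker and narrower than those of other genes. Among the members with a gene-end interval, the median percentile was 72.5 and 63.8 in the FOXD2 libraries and 63.4 and 58.4 in the controls. Over all protein-coding genes with one, it was 89.7 and 87.3 in the FOXD2 libraries and 89.0 and 88.4 in the controls. Median widths of the members were 700 and 527 bp in the FOXD2 libraries and 487 and 569 bp in the controls, against 919 and 878 bp and 952 and 921 bp over all genes. Every library showed the HOX median below that of all genes, on both measures. Gene-end intervals over 1000 bp were found at 15.4% and 8% of the members with an interval in the FOXD2 libraries and 28.1% and 10.3% in the controls, against 41% and 36.5% of such genes overall in the FOXD2 libraries and 44.7% and 41.2% in the controls. In control replicate 1 these members include HOXC4, HOXC5 and HOXC6 through their 1 shared peak.

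In the HOX clusters, 82 and 68 regions were called in the FOXD2 libraries and 98 and 83 in the controls, and the regions called in both libraries of 1 group only were nearly all control regions. Of the 127 HOX regions, 11 were called in both controls and neither FOXD2 library (lost), which is 8.66% against 3.87% of all regions. Only 1 was called in both FOXD2 libraries and neither control (gained), 0.787% against 3.89% of all regions. A total of 51 were called in all 4 libraries, 40.2% against 32.5%, and 39 in a single library, 30.7% against 40.8%. The remaining 25 were in 2 or 3 libraries in another pattern. These counts have no test of their own, and an earlier look at these data had already shown more lost than gained HOX regions, so these counts are not independent evidence of that direction.

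The counts changed when a library was left out. That also loosens the rule, since one group then holds a single library, and the shares of all regions rose as well. Without FOXD2 replicate 1 there were 17 lost and 6 gained HOX regions, 14.5% and 5.13%, against 10.3% and 12% of all regions. Without FOXD2 replicate 2 there were 15 lost and 13 gained, 12.1% and 10.5%, against 5.93% and 19.5%. Leaving out control replicate 1 gave 17 lost and 3 gained, 14.9% and 2.63%, against 14.4% and 6.91%, so that the lost share was then near that of all regions. Leaving out control replicate 2 gave 27 lost and 3 gained, 22.3% and 2.48%, against 17% and 6.18%. In these 4 counts the gained share in the HOX clusters was below that of all regions each time, and the lost share was above it each time. They reuse the same libraries, and each region lost or gained in the full count stays so in all 4. The repeated direction is therefore not independent evidence.

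The lists themselves differ in length, and that difference does not run with the groups. They hold 82739 and 64675 intervals in the FOXD2 libraries and 77752 and 72796 in the controls, and FOXD2 replicate 1 has the most. Their median −log10 q and median fold enrichment do run with the groups, as given above. The HOX windows held 87 and 74 intervals in the FOXD2 libraries and 102 and 91 in the controls. Both FOXD2 libraries lay below both controls, with means of 80.5 ± 9.19 against 96.5 ± 7.78 intervals (SD, n = 2 each). The difference of -16 intervals had p = 0.333 in a two-sided exact permutation test over the 6 ways to label the libraries, which is the smallest p it can give.

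Covered length followed the same order. Intervals nearest to a listed gene covered 43527 and 36884 bp in the FOXD2 libraries and 51292 and 45942 bp in the controls, means of 40206 ± 4700 and 48617 ± 3780 bp (SD, n = 2 each; exact permutation p = 0.333). Scaled to each list, that was 0.110% and 0.118% of all covered bases in the FOXD2 libraries and 0.133% and 0.132% in the controls, and 10.5 and 11.4 intervals per 10000 in the FOXD2 libraries against 13.1 and 12.5 in the controls. The groups did not overlap on any of these scales. Without FOXD2 replicate 2 the differences were -9.5 intervals and -5090 bp, and without control replicate 1 they were -10.5 intervals and -5736 bp, each with an exact permutation p of 0.667. By cluster, HOXA was covered over 12527 and 10992 bp in the FOXD2 libraries and 14773 and 13505 bp in the controls, and HOXB over 15272 and 13302 bp against 19386 and 16903 bp. HOXC had 8231 and 6169 bp in the FOXD2 libraries and 8701 and 8288 bp in the controls. In HOXD the groups overlapped, with 7497 and 6421 bp in the FOXD2 libraries and 8432 and 7246 bp in the controls. By number of intervals, the groups were apart in HOXA and HOXB only. HOXC had 14 and 16 intervals in the FOXD2 libraries and 20 and 16 in the controls. HOXD had 17 and 14 in the FOXD2 libraries and 15 and 15 in the controls.

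**Figure D3:**
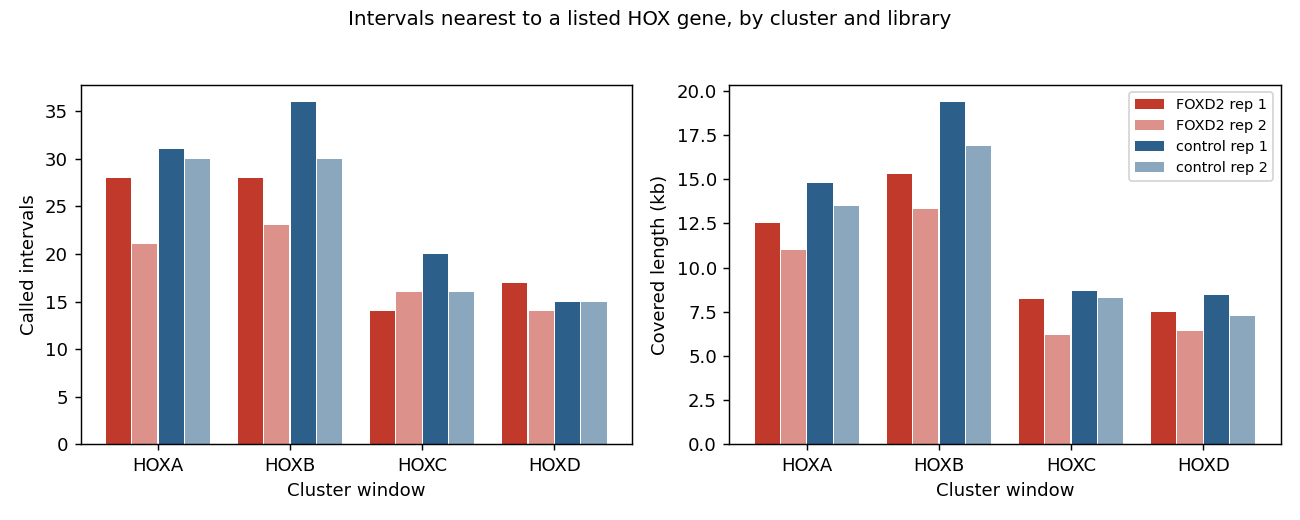
Called intervals (left) and covered length in kb (right) nearest to a listed HOX gene, by cluster, with 1 bar per library (red for FOXD2 and blue for control, darker for replicate 1). Covered length in HOXA, HOXB and HOXC is lower in each FOXD2 library than in either control, and the groups overlap in HOXD.

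Most of the lost regions lay in the HOXA and HOXB clusters. HOXA had 4 of 36 regions lost, HOXB 5 of 45, HOXC 1 of 22 and HOXD 1 of 24. By the class of the nearest gene, 2 of 38 anterior, 2 of 26 central and 7 of 63 posterior regions were lost. A region inside HOXA3 counts as anterior even where it lies between central genes, as the lost one does. By place, 7 were lost among 49 regions outside a listed HOX gene body and its ends, 2 among 33 inside a listed gene and 2 among 45 at its ends. Over all regions 3.87% were lost, but that share was not split by place. Whether the spread over places is particular to the HOX clusters was not tested. Outside refers to the listed genes alone, since the lost region farthest from HOXA13 lies inside EVX1 and one near HOXB13 lies inside PRAC2.

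The strongest of them lay inside HOXA3, a gene of the pharyngeal organs, at chr7:27135898-27136219. Because the long gene body of HOXA3 spans HOXA4 and HOXA5, this region also lies between those central genes. No interval was called there in either FOXD2 library, and −log10 q was 17.3 and 21.7 in control replicates 1 and 2. The next region, chr7:27136447-27136765, was called in all 4 libraries, with 23.6 and 20.3 in the FOXD2 libraries and 14.5 and 11.2 in the controls. At this neighbour both FOXD2 libraries were above both controls, the reverse of the lost region. Whether signal lay between or across the called intervals cannot be read from peak lists.

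Other lost regions of HOXA lay near its posterior genes. One was at chr7:27166258-27166532, 721 bp beyond the higher-coordinate end of HOXA9, a gene known from leukaemia, with 9.52 and 10.8 in the controls. At the HOXA9 gene end itself, −log10 q was 5.56 in FOXD2 replicate 1, with no interval in FOXD2 replicate 2, and 14 and 13.4 in the controls. Both controls were thus above the one FOXD2 value at the HOXA9 start, whose promoter is printed above. A pair of lost regions was nearest to HOXA13, at chr7:27192517-27192811 with 12.3 and 5.79 in the controls, and at chr7:27245641-27246129, 45550 bp away, with 5.02 and 3.71. The peak over the HOXA13 promoter itself was called in every library.

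In HOXB, a lost region lay 41659 bp from HOXB1, a hindbrain gene, at chr17:48486624-48486867, with 12.3 and 17.4 in the controls. Near HOXB8, which acts in blood and microglia in the mouse, the region chr17:48617818-48618218 had 5.71 and 4.04 in the controls, and near HOXB9 the region chr17:48636566-48636952 had 8.61 and 10.7. Both are weaker than the peaks called in all 4 libraries close by. The remaining pair lay beside HOXB13, at chr17:48719963-48720275 with 15.3 and 7.65 in the controls, and at chr17:48724516-48724772 with 8.89 and 13.8. The second touches the lower-coordinate end of HOXB13 and also lies at an end of PRAC2, a small gene next to HOXB13, so PRAC2 itself counts among the genes that lost a gene-end peak. HOXB13 kept the interval at its other end in every library.

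The HOXC and HOXD clusters had 1 lost region each. The one in HOXC lay inside HOXC6, a trunk gene, at chr12:54021651-54021984, with 5.72 and 11 in the controls. The one in HOXD lay 1023 bp from HOXD12, a limb gene, at chr2:176098288-176098772, with 3.50 and 5.96. Both were weak beside the strong gene-end peaks of their clusters.

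The single gained region was in HOXD, 1125 bp from HOXD11, a gene of the forelimb and kidney in the mouse. It spanned chr2:176105496-176106155, with −log10 q of 6.93 and 5.49 in the FOXD2 libraries and no interval in the controls. The promoter of HOXD11 next to it was open in all 4 libraries, with 9.11 and 11.2 in the FOXD2 libraries and 18.2 and 19.4 in the controls. There both controls were above both FOXD2 libraries, the reverse of the gained region. When regions had to share at least 50% of the shorter interval, no HOX region was gained.

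Lost regions were narrow and of moderate strength. Their median width was 322 bp in the HOX clusters and 351 bp over all lost regions, and their median −log10 q in control replicates 1 and 2 was 8.89 and 10.7 in the HOX clusters and 7.22 and 7.03 over all lost regions. The HOX regions called in all 4 libraries had a median width of 751 bp, close to the 748 bp of all such regions. Their median −log10 q was 20.6 and 14.8 in the FOXD2 libraries and 25.1 and 18.7 in the controls, against 22.8 and 17.7 and 25.9 and 24.7 over all regions called in every library.

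**Figure D4:**
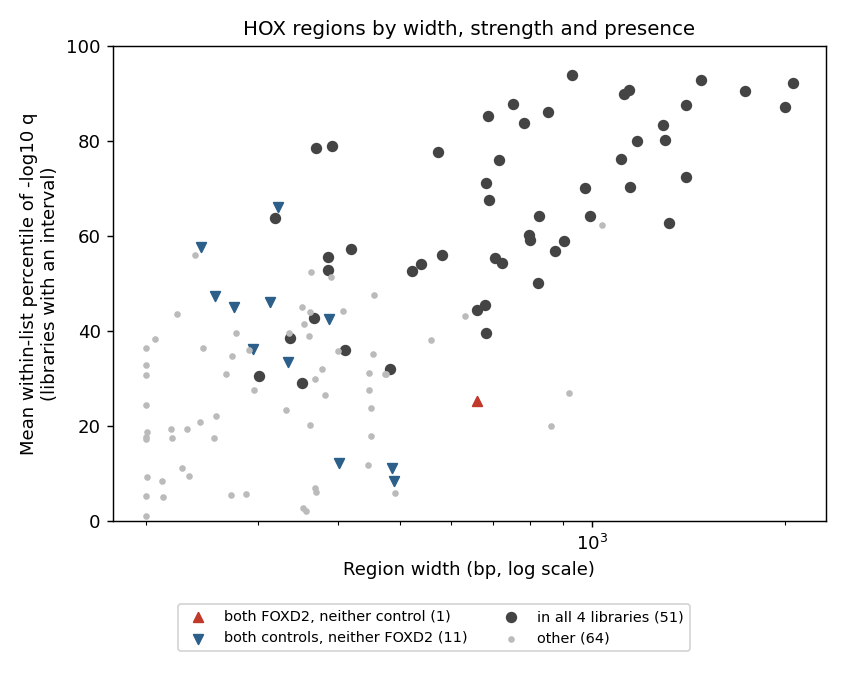
Width in bp (log scale) and mean within-list percentile of −log10 q, over the libraries with an interval, for the 127 HOX regions (each point is a region). The 11 lost regions lie at narrow widths among other regions, and the 51 regions called in all 4 libraries reach the greatest widths and percentiles.

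At the level of gene ends, 3 of the 38 members had an interval in both controls and neither FOXD2 library, against 0.901% of all protein-coding genes, and 0 members had the reverse, against 0.476%. The 3 were HOXD3, HOXD4 and HOXD9, which act along the neck, trunk and limbs. HOXD4 and HOXD3 overlap in the gene table and were counted through the same intervals, chr2:176151914-176152133 in control replicate 1 with −log10 q of 5.45 and chr2:176152375-176152617 in control replicate 2 with 6.10. For HOXD9 the controls had 5.69 and 6.37, again from separate intervals. No FOXD2 library had an interval at any of the 3, but the control intervals do not overlap each other, so none of these stretches is a lost region in the count above. Only the 5′ end considered, 1 of the 20 members with a promoter entry lost its peak. Without FOXD2 replicate 1, or without control replicate 2, the count of members losing a gene-end peak was 5, and without control replicate 1 the count of members gaining one was 1.

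The other members open in some libraries only were also called more often in the controls. HOXB1 had −log10 q of 4.20 in FOXD2 replicate 2, none in FOXD2 replicate 1, and 9.72 and 7.30 in the controls. These values come from separate regions that do not overlap. The region of the FOXD2 interval, chr17:48530560-48531009, had 7 in control replicate 1 and no interval in control replicate 2. HOXB4, a gene of blood stem cells, had 5.87 in FOXD2 replicate 1, none in FOXD2 replicate 2, and 7.89 and 7.90 in the controls. The exception was HOXC11, with 6.68 and 3.95 in the FOXD2 libraries, 12.1 in control replicate 1 and none in control replicate 2. HOXA6 and HOXC12 had an interval in control replicate 1 alone. In all, 26 and 25 members had a gene-end interval in the FOXD2 libraries and 32 and 29 in the controls, while among all protein-coding genes the shares were 71.7% and 68.9% in the FOXD2 libraries and 72.6% and 70.7% in the controls.

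Regions called in a single library show how much of each list is private to it. Of the 39 such HOX regions, 12 and 5 were in FOXD2 replicates 1 and 2 and 16 and 6 in control replicates 1 and 2. Over all regions called in 1 library, 35.1% and 15.5% were in the FOXD2 libraries and 28.3% and 21.1% in the controls. Replicate 1 had more than replicate 2 in both groups.

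The promoter windows of the HOX genes are rich in CpG, and those under an interval in every library hold the most. Over the 26 windows the median was 22.5 CpG, against 14 over the 34789 promoter windows of the table. The 9 windows under an interval in all 4 libraries had a median of 27 and a range of 21 to 44, the 7 under one in 1 to 3 libraries had 22 (11 to 31), and the 10 under none had 13 (0 to 25). The ranges overlap, several windows belong to HOXA3, which has several start sites, and the HOXD3 promoter printed above has 25 CpG without an interval in any library.

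**Figure D5:**
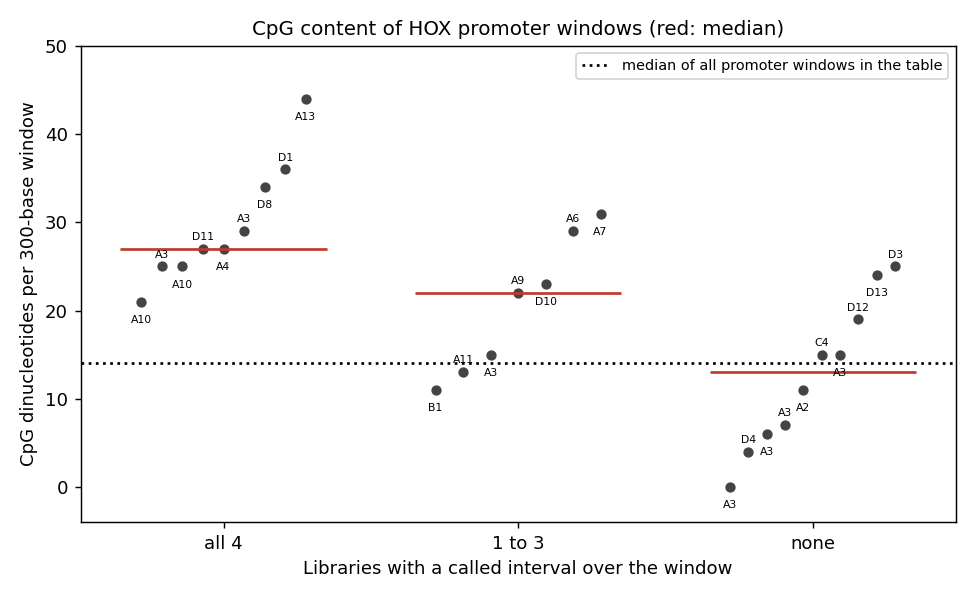
Number of CpG dinucleotides in each of the 26 HOX promoter windows of 300 bases, by the number of libraries with an interval over the window; red lines are medians and the dotted line is the median of all windows in the table. The windows called in all 4 libraries have a median of 27, and those called in none have 13.

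Known binding words were searched on both strands of the same windows. The forkhead word GTAAACA was in 1 of the 26 HOX windows, 3.85% against 3.42% of all windows, and that window, shared by HOXC4 and HOXC5, lay under no interval. The CDX word TTTATNG was in 6 windows, 23.1% against 9.74%, and HOXA9 and HOXD8 were among their genes. TGATNNAT, a word for HOX with a PBX partner, was in 3 windows, 11.5% against 7.39%, and the AP-1 word TGANTCA was in 0, against 7.69%. These matches are a description of letters in short windows and say nothing of binding.

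The clusters also hold microRNA genes, which were chosen for description after their values were seen. Their mature sequences, from RefSeq and printed 5′ to 3′ with the seed (bases 2 to 8) in capitals, show that miR-196a and miR-196b, encoded in 3 HOX clusters, share a seed, while miR-10a and miR-615 have others.
hsa-miR-196a-5p: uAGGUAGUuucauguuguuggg
hsa-miR-196b-5p: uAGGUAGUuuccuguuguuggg
hsa-miR-10a-5p: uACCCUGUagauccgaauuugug
hsa-miR-615-3p: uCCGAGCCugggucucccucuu

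An interval overlapped the MIR615 hairpin inside HOXC5 in every library, but in FOXD2 replicate 2 by its last bases only, short of the mature sequence printed above. This interval, in the region chr12:54033983-54034283, had −log10 q of 6.66 and 4.24 in the FOXD2 libraries and 11.5 and 7.38 in the controls. The strongest interval within 1000 bp had 12.4 and 9.38 in the FOXD2 libraries and 21.2 and 15.3 in the controls. Both controls were above both FOXD2 libraries on the −log10 q scale, whereas the percentiles of the overlapping interval, 32.3 and 7.79 in the FOXD2 libraries and 51 and 31.1 in the controls, overlapped. Within the same distance, the strongest interval at MIR196B, between HOXA9 and HOXA10, had 11.9 and 5.54 in the FOXD2 libraries and 17.2 and 11 in the controls. These values come from different regions in replicates 1 and 2. The nearer region, chr7:27169000-27169409, was called in all 4 libraries, with 5.84 and 5.54 in the FOXD2 libraries and 12.2 and 11 in the controls. Its percentiles were 25.5 and 17.4 in the FOXD2 libraries and 53.3 and 47.9 in the controls, so both controls were higher on both scales. MIR10A had an interval in control replicate 1 alone (4.03), MIR196A1 in FOXD2 replicate 1 alone (3.46), and MIR196A2 and MIR10B had none in any library.

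Genes that work with or on the HOX genes were mostly open at a gene end in all 4 libraries, as were 65.5% of all protein-coding genes. Of the 10 TALE partners, 7 were, which is near that share. MEIS1 and MEIS3 had no interval in any library, and TGIF1 had one in 3. Among the caudal genes, CDX2, the regulator of intestinal identity, had −log10 q of 24.3 and 18.0 in the FOXD2 libraries and 19.8 and 17.8 in the controls, which overlapped. Its percentiles did not overlap, with 76.8 and 68.8 in the FOXD2 libraries and 67.1 and 62.8 in the controls. CDX1 was open in all 4 libraries and CDX4 in none. Of the Polycomb genes 13 of 14 were open in all 4, and so were 9 of 9 Trithorax and MLL genes and 6 of 6 genes of chromatin boundaries, among them CTCF. None of these genes gained or lost a gene-end peak. Of GSX1, GSX2 and PDX1, which with the caudal genes make up the ParaHox genes, PDX1 was open in all 4 libraries and each of the other two in some.

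Among 15 genes inside or beside the clusters, 9 were open in all 4 libraries, beside 65.5% of all protein-coding genes. The 15 include long noncoding RNA genes, so that share is not drawn from genes of the same kind. The 9 include the long noncoding RNA genes HOTTIP, counted through the HOXA13 peak, and HAGLR, counted through the HOXD1 peak. HOTAIR, a long noncoding RNA gene in HOXC, is also among them, with 14.5 and 11.5 in the FOXD2 libraries and 15.3 and 9.26 in the controls. The groups overlapped at HOTAIR. EVX1, EVX2, PRAC1, SKAP1 and HOXA-AS2 had no gene-end interval in any library, and PRAC2 was the one that counted as lost.

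The samples were checked by the transduced gene and by cell type markers. FOXD2 itself had an interval inside the gene with −log10 q of 17.1 and 17.7 in the FOXD2 libraries, and of 8.29 in control replicate 1 with none in control replicate 2, but reads from the coding sequence in the vector and from the chromosomal gene cannot be told apart. Of 8 epithelial markers 6, EPCAM and CDH1 among them, had a gene-end interval in all 4 libraries, while KRT20 was called in 3 and VIL1 in 2. Of 14 markers of other cell types 5 were called in all 4 libraries (COL1A1, COL1A2, SPI1, SYP and RBFOX3) and 6 in none, PTPRC, PECAM1 and VWF among the 6. Over all protein-coding genes the shares were 65.5% in all 4 libraries and 23.1% in none. The epithelial count is near the first share, so with few markers it says little of cell type. The endothelial CDH5 gained an interval (4.58 and 4.50 in the FOXD2 libraries) and the T-cell CD3E lost one (8.11 and 4.89 in the controls), and the part of other cells in the HOX values was not tested.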

How the data were processed

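One interval list per library (narrowPeak format, hg38) was used. Per the submitters' processing notes, the tools were MACS2 2.2.7.1, Bowtie2 2.3.4.1, cutadapt 3.4, bedtools and Picard, with no settings stated in the labels or list headers. Each deposited list gives, by its format, the authors' score, their fold enrichment (a ratio) at the summit, −log10 p-value and −log10 q-value per interval. The score and −log10 p were not used further. The lists hold no read counts, so sequencing depth is unknown, and no test of signal was possible.

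Intervals on chromosomes 1 to 22 and X were merged across libraries where they overlapped by at least 1 bp (Python 3.11.15, pandas 2.3.3), and regions were assigned to the nearest HOX gene body, or the shortest of several that hold it. A gene-end peak is an interval of that library within 1000 bp of either end of the gene. Percentiles rank −log10 q within a list. The merging was tested on simulated data. Library totals were compared by two-sided exact permutation.

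All members are accounted for. Values per library are given for members with a gained or lost region or gene-end peak and for the gene-end peaks of each cluster with the highest mean percentile and mean width, and other members are named by their counts or as examples. Members, gene lists and rules were chosen with earlier results of these data known. Alternatives were other overlaps, flanks, gene-end windows, stricter intervals, lists of equal length and leaving out each library.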

Additional observations from a re-analysis of the deposited data

How the results depend on the processing

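Across 81 recomputed values, 15 counts moved by over 1.5 times, or to or from 0, and 0 values reversed. The other 66 were counts within 1.5 times of the value reported, or differences between FOXD2 and control that kept their direction, whatever their size. Leaving out 1 library at a time gave 3 to 13 gained and 15 to 27 lost HOX regions, 0 to 1 members gaining and 3 to 5 members losing a gene-end peak, and differences between FOXD2 and control of -22.5 to -9.5 intervals and of -11730 to -5090 bp of covered length. Those region and member counts rest on a looser rule, as one group then holds a single library. Gained regions numbered 0 when at least 50% of the shorter interval had to be shared and 2 when only windows around the summits were used. With gene-end windows of 2500 bp, 3 members had no peak in any library. Counting 5′ ends only, 11 members had a peak in all 4 libraries and 1 lost it. The replicate number was not stated to mark a shared batch. Differences in within-list percentile between replicates 1 and 2 were nearly uncorrelated between the groups (r = 0.0159 over 39933 shared regions). Percentiles within a list cannot show a shift of the whole list, and replicate 1 had more intervals than replicate 2 in both groups. With a replicate block the differences are the same (-16 intervals and -8412 bp). The exact permutation p was then 0.5 for both, the smallest that 4 labelings allow. Peak lists limit these results to presence or absence: a signal just under the authors' threshold and no signal look alike.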
